A study of Mus musculus with 8 samples.

Results

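The proteins of the large (60S) ribosomal subunit were followed in mouse embryonic stem cells (mESC) with and without METTL5, the enzyme that places N6-methyladenosine on 18S ribosomal RNA of the small subunit. The 44 genes, from Rpl3 to Rpl39 with the stalk genes Rplp0, Rplp1 and Rplp2, were taken by symbol from tables of 23845 genes, and all 44 were present. There were 4 groups of 2 libraries: wild-type (WT) and METTL5 knockout (KO) cells, each at passages 5 to 10, measured by sequencing of total RNA (RNA-seq) and of ribosome-protected fragments in the monosome fraction of sucrose gradients (Ribo-seq, footprints). The number of KO clones behind the libraries, and what the replicates share, is not stated in the labels. The p-values therefore cover only the differences among these particular libraries, which may be technical. Mettl5 itself checked the genotype labels of the footprint libraries: it had 41.2 and 45.9 footprint CPM (counts scaled to the same library total) in WT and 4.08 and 4.79 in KO. In RNA-seq it was also lower in KO but not called (log2 fold change -0.878, SE 0.318, adjusted p = 0.126, edgeR quasi-likelihood test). The RNA-seq labels were thus checked less firmly.

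The large subunit carries the peptidyl transferase centre, which is made of RNA, and its proteins line the exit tunnel, hold the tRNA sites and form the stalk that recruits translation factors. Each protein is needed in step with the others, and most of their mRNAs are TOP mRNAs: the first base is a C, followed by a run of pyrimidines, through which mTORC1 and LARP1 set their translation together. Rpl5 and Rpl11, with the 5S ribosomal RNA, also form the particle that binds Mdm2 when assembly fails.

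Ribo-seq gave 8401463 to 11487964 expected counts per library and RNA-seq 152195 to 219567. The 44 genes took 4.44% to 5.13% of the footprint counts (372672 to 555992 counts per library). In RNA-seq they took 0.295% to 0.463%, which is 460 to 1016 counts per library, so single genes rested on few RNA-seq counts. Rn45s, the ribosomal RNA precursor, took 7.58% and 10.9% of the footprint counts in WT and 10.6% and 15.2% in KO. The totals behind CPM include it. Cell markers moved with genotype in the footprints, though not all genes of a list moved together. The 12 fibroblast markers summed to 257 to 427 CPM in WT and 697 to 876 in KO. Of 10 tested, 3 were called higher (Col3a1, Col5a1 and Tagln), while Pdgfra (-1.20 on the log2 scale) and Thy1 (-0.514) lay below 0, uncalled. Lum was at 0 in each library. The 12 endoderm markers summed to 1352 to 1558 CPM in WT and 844 to 1077 in KO (4 of 11 called lower). The 8 trophoblast markers summed to 74.3 to 86.6 and 275 to 310 (2 of 5 called higher, the keratins Krt8 and Krt18). Cdx2, Elf5 and Gata3 were too low to test. The 6 neural markers summed to 177 and 119 CPM in WT and 126 and 105 in KO (1 of 5 called higher, Sox11). Of these 5, 3 lay above 0, while Tubb3 (-0.942) and Pax6 (-0.821) lay below 0, uncalled. The 6 mESC markers summed to 2717 and 2853 CPM in WT and 2430 and 2795 in KO, with 0 of 6 called. Of these, 5 lay above 0 and Zfp42 (-0.581) below. In such bulk samples fewer cells of a type and less RNA per cell cannot be told apart, and the part of these markers in the results below was not tested.

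The annotated starts of the genes were looked at for the TOP feature that the family is known for. Promoter windows of 300 bases (RefSeq, GRCm38.p6) were found for 33 of the 44 genes. A run of at least 6 C or T letters that begins with C, on the gene's strand and within 25 bases of the start, lay in 23 of 33 (69.7%), in 17 of 24 small-subunit protein genes (70.8%) and in 39.0% of 16828 genes. The letters CCGGAAG, searched on both strands of the 300 bases, lay in 39.4% of the large-subunit genes, 41.7% of the small-subunit genes and 12.9% of all; read on the other strand they are CTTCCGG, whose first letters can lie in a pyrimidine run. A match is a description of letters and not a measured start or a bound site. The windows below show the run in capitals for 6 genes that the results turn on or whose run begins within a few bases of the annotated start.
Rplp2, chr7:141447642-141447671, plus strand: agcgtCTTCCTTTCgccgccggacgccgcc
Rpl35a, chr16:33056472-33056501, plus strand: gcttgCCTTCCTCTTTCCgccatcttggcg
Rpl38, chr11:114668575-114668604, plus strand: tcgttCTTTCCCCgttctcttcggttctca
Rpl18, chr7:45718067-45718096, plus strand: ggccgCTCTTTCCCCgcccactccggcgcg
Rpl28, chr7:4792958-4792987, plus strand: cgtgtCTCTCTTTCCgtctccggccgccat
Rpl4, chr9:64173365-64173394, plus strand: caagtCTTTCCTTTTCCTgtgggagcagcc
The run began at base +1 of the annotated start in Rpl38 and at +2 in Rpl18, and 2, 4, 5 and 17 bases before it in Rpl28, Rplp2, Rpl35a and Rpl4. In footprints, KO against WT, the 6 genes ran from -0.160 (Rpl38) to 0.415 (Rpl35a) on the log2 scale.

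Although each ribosome takes most of these proteins in a single copy, their footprint levels per codon were unequal. CPM divided by the number of codons had a median of 5.23 to 6.16 per library, and without Rpl14 the highest gene stood 7.33 to 18.1 times above the lowest. The middle of the family lay closer together, with the upper quartile 1.6 to 1.91 times the lower. Rpl38, a small surface protein whose loss in mice alters the skeleton, was first with 16.5 and 22.3 CPM per codon in WT and 13.7 and 20.4 in KO. Rpl27 followed with 15.4, 16.6, 12.6 and 15.1, and Rplp2 with 13.4, 12.1, 16.1 and 16.1, in the order WT 1, WT 2, KO 1, KO 2. Within each library Rpl38 was above Rpl27. Rplp2 was below both in the WT libraries, above both in KO 1 and between them in KO 2, so its place is not resolved. At the low end stood Rpl29, at 2.25, 1.23, 1.77 and 1.57, below each library's value for Rpl17, the next gene up, at 3.55, 2.81, 2.86 and 2.94. CPM counts reads over the whole transcript, and the part of coding length in this order was not tested. Rpl38, Rpl27 and Rplp2 have 70, 136 and 115 codons, while Rpl36 and Rpl37, also short with 105 and 97, rank near the low end.

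**Figure D1:**
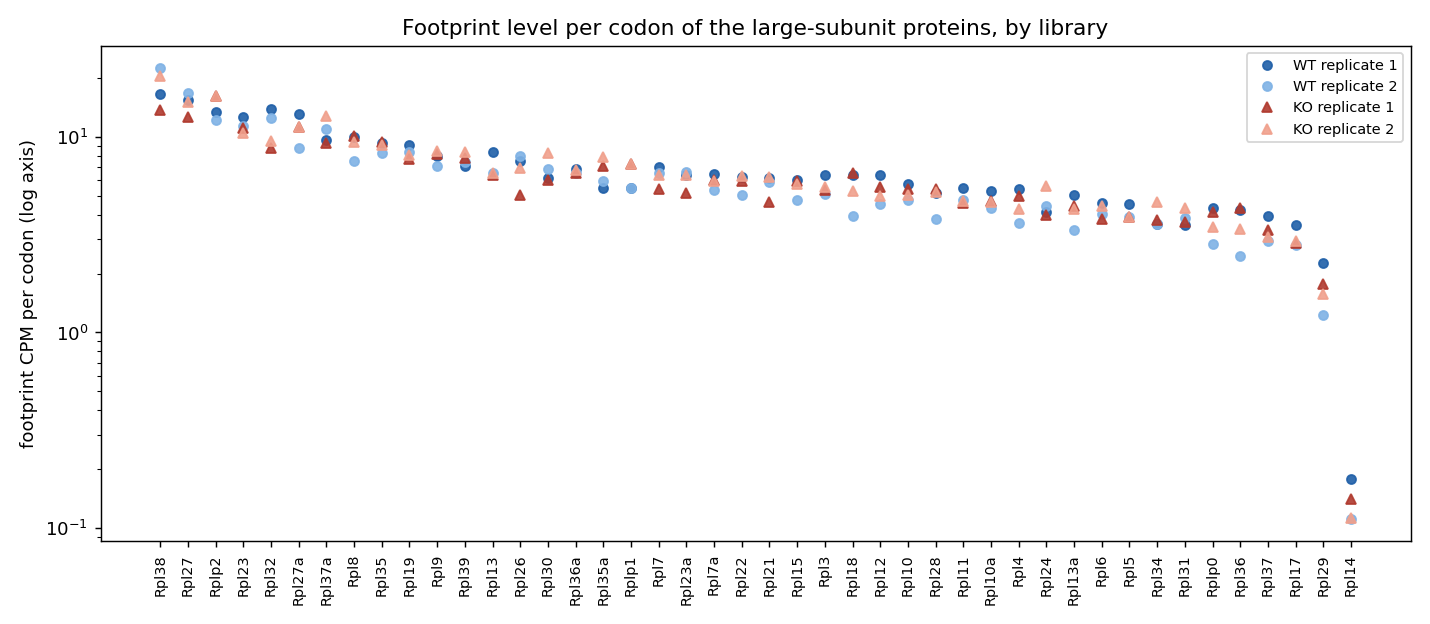
Footprint CPM per codon (log axis) of the 44 large-subunit proteins, ordered by their mean; each point is 1 library, circles WT and triangles KO. Most genes lie within a narrow band around the library medians of 5.23 to 6.16, Rpl38 is first, and Rpl14 stands far below the others at 0.112 to 0.180.

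Within the stalk, the arm that binds elongation factors, the anchor protein Rplp0 had 4.35, 2.81, 4.10 and 3.47 CPM per codon. Rplp1, 1 of the paired acidic proteins that sit on the anchor and are present in more than a single copy per ribosome, had 5.49, 5.47, 7.27 and 7.21. Its partner Rplp2 was higher still, at the values above. Of the 28-base windows of the Rplp2 coding sequence, 82.6% also occur in transcripts of the table's entry Wdr89, so the Rplp2 count depends on how shared reads were split.

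The lowest value, that of Rpl14, followed a near copy. Rpl14 (chr9:120571444-120574654, plus strand, GRCm38) had 39.0, 24.3, 30.7 and 24.5 CPM, and 0 counts in each RNA-seq library. The processed pseudogene Rpl14-ps1, on chromosome 7, has 4 mismatches over 651 aligned bases of the coding sequence (99.4% identical) and held 9467, 5259, 7258 and 8678 footprint counts. The assignment thus gave the gene 3.14% to 4.13% of the pair's counts. The stretch with most differences (coding bases 364 to 423, differing letters in capitals) shows how little separates them:
Rpl14: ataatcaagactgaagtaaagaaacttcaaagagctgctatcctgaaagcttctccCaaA
Rpl14-ps1: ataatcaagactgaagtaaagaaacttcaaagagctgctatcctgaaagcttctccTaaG
With the 2 entries summed, the level was 944 and 650 CPM in WT and 809 and 780 in KO, and KO against WT stood at 0.008 on the log2 scale (SE 0.199, adjusted p = 0.989). The same holds in part for Rpl31, which took 78.6% to 89.4% of the counts it shares with Rpl31-ps12 (98.9% identical). Coding windows were also shared by Rpl21 (69.7%), Rpl29 (55.7%), Rpl36a (28.6%), Rpl7a (19.3%) and Rpl37a (16.3%), and levels of these genes are uncertain to that extent.

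The footprint comparison asked whether the KO changed ribosome occupancy on the mRNAs of the large subunit, which follows both mRNA level and ribosomes per mRNA. No protein of the family passed the test: 0 of 44 were called (edgeR quasi-likelihood, adjusted p under 0.05) beside 2.44% of the 12315 genes tested. DESeq2 and limma also called 0. The family's median log2 fold change was 0.018 (all genes 0.006), with 23 genes above 0 and 21 below, and standard errors of 0.154 to 0.258. At an unadjusted p under 0.05 there were 3 of 44 (6.82%), Rpl32, Rplp1 and Rpl35a, against 19.4% of all genes. The differences were small throughout, between 0.700-fold for Rpl32 and 1.33-fold for Rplp1 and Rpl35a. A miss of the threshold does not show that a gene was unchanged.

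**Figure D2:**
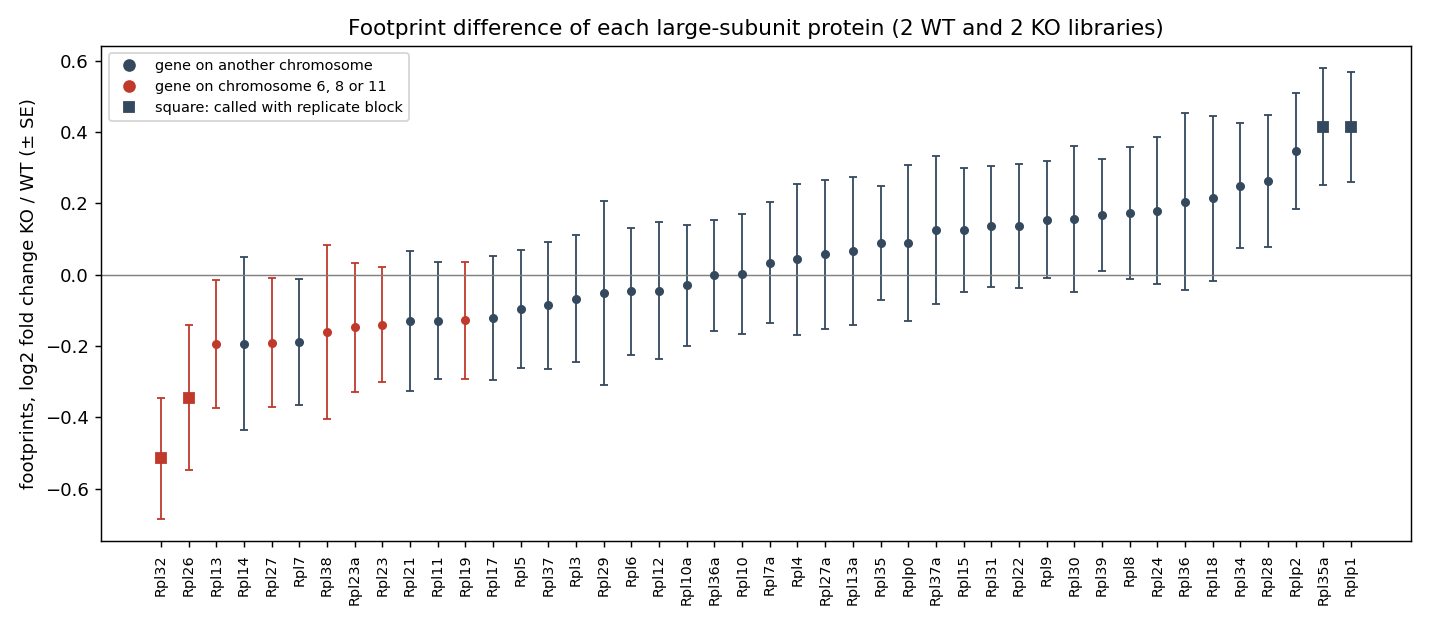
Footprint log2 fold change of KO against WT with its SE for each large-subunit protein, in order of size; squares mark genes called with the replicate number as a block, and red marks genes on chromosomes 6, 8 and 11. Values run from -0.515 (Rpl32) to 0.415 (Rplp1 and Rpl35a), and all 8 red genes lie below 0.

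At the upper end stood 2 stalk proteins and Rpl35a. Rplp1 (chr9:61913284-61914542, minus strand) had 626 and 623 CPM in WT and 828 and 822 in KO, so both KO libraries were above both WT libraries by more than the replicates differed. It stood at 0.415 on the log2 scale (SE 0.154, adjusted p = 0.187). Its partner Rplp2 (chr7:141447370-141451585, plus strand) had 1543 and 1391 CPM in WT and 1847 and 1851 in KO (0.347, SE 0.163, adjusted p = 0.287). The anchor Rplp0 did not separate the genotypes, with 1377 and 892 CPM in WT and 1301 and 1099 in KO (0.089, SE 0.218, adjusted p = 0.870). Rpl35a (chr16:33056453-33060189, plus strand), mutated in some patients with Diamond-Blackfan anaemia, had 599 and 650 CPM in WT and 783 and 864 in KO (0.415, SE 0.164, adjusted p = 0.213).

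At the lower end stood Rpl32 and Rpl26. Rpl32 (chr6:115805505-115808747, minus strand) had 1872 and 1685 CPM in WT and 1175 and 1288 in KO, the largest fold change of the family in size and its smallest unadjusted p (-0.515, SE 0.170, adjusted p = 0.148). Rpl26 (chr11:68901583-68906989, plus strand), which lies near the tunnel exit, had 1087 and 1154 CPM in WT and 733 and 1007 in KO (-0.345, SE 0.203, adjusted p = 0.401). Here the gap between the KO libraries was larger than the gap between the genotypes. In all, KO libraries lay apart from WT libraries on the higher side in 7 genes (Rpl9, Rpl28, Rpl34, Rpl35a, Rpl39, Rplp1 and Rplp2) beside 24.3% of all genes, and on the lower side in 8 (Rpl7, Rpl11, Rpl13, Rpl19, Rpl23, Rpl26, Rpl27 and Rpl32) beside 25.5%. The family's shares, 15.9% and 18.2%, were thus not above the background.

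Of proteins known for roles outside the ribosome or at its core, Rpl5 had 1350 and 1156 CPM in WT and 1161 in each KO library (-0.097, SE 0.166, adjusted p = 0.803), and its partner Rpl11 had 973 and 847 in WT and 813 and 835 in KO (-0.129, SE 0.164, adjusted p = 0.724), with both KO libraries below both WT libraries. Rpl10, which sits beside the peptidyl transferase centre and joins last, had 1230 and 1017 CPM in WT and 1152 and 1080 in KO (0.002, SE 0.168, adjusted p = 0.996). Rpl3, which reaches toward the same centre, had 2569 and 2060 in WT and 2156 and 2219 in KO (-0.067, SE 0.179, adjusted p = 0.882). Rpl39, a tunnel protein, had 363 and 378 CPM in WT and 395 and 427 in KO (0.167, SE 0.157, adjusted p = 0.613), and Rpl38 had 1157 and 1560 in WT and 961 and 1431 in KO (-0.160, SE 0.244, adjusted p = 0.776). For Rpl38 the replicate difference was larger than that between genotypes.

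Position on the genome went with the sign. The 8 genes on chromosomes 6, 8 and 11 (Rpl32, Rpl13, Rpl19, Rpl23, Rpl23a, Rpl26, Rpl27 and Rpl38) were all below 0, with a median of -0.176, and all 2283 tested genes of these chromosomes had a median of -0.272. The other 36 genes had a median of 0.078 (13 below 0) and all genes elsewhere 0.057. The 3 chromosomes were singled out with earlier results of these data known. Both genes at the lower end lie there, and the part of this shift in their values was not tested.

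Same-numbered WT and KO footprint libraries carry the same tag in their deposited names, and the labels do not say what the tag marks. Over the 44 genes, the WT replicate difference and the KO replicate difference correlated with r = 0.867 and rho = 0.867, a description over genes that share the same 4 libraries. Against the WT library of the same number, the family's median log2 difference was -0.147 in KO 1 (12 genes above 0) and 0.143 in KO 2 (34 above 0), while all genes had 0.039 and -0.058. These are differences of CPM, and the part of Rn45s in them was not tested. The sign was opposite in the pairs for 22 of 44 genes (50%), against 28.7% of all genes. WT replicate 2 was the low library: its median difference from WT replicate 1 was -0.188 (all genes 0.006), and that of KO 2 from KO 1 was 0.037 (all genes -0.080). In both genotypes 25% of the family was higher and 43.2% lower in replicate 2, beside 27.4% and 37.2% of all genes.

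**Figure D3:**
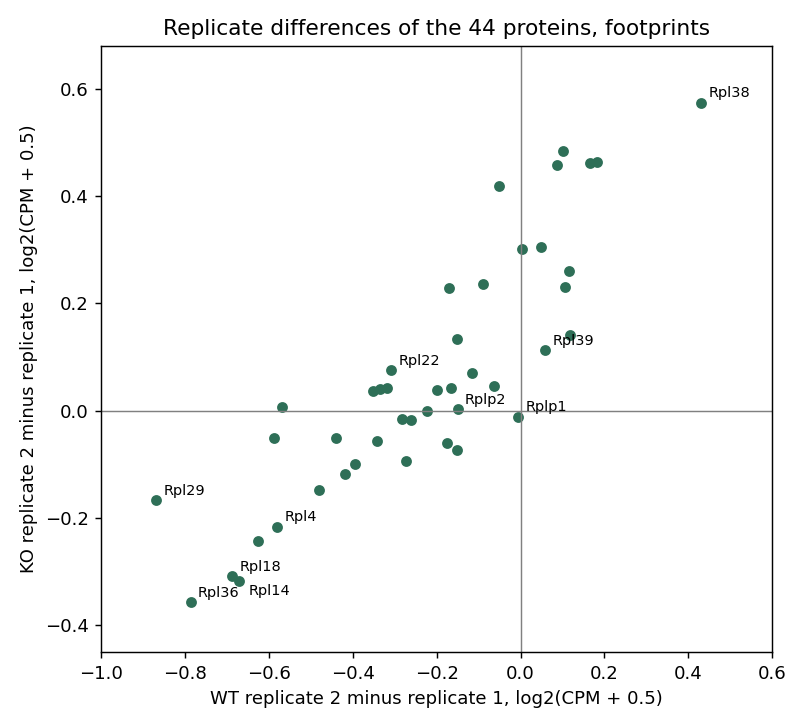
Replicate 2 minus replicate 1 in log2(CPM + 0.5) of footprints, WT on the x axis and KO on the y axis; each point is 1 of the 44 large-subunit proteins. The points rise together (r = 0.867), from Rpl36 and Rpl29 at the lower left to Rpl38 at the upper right.

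In a fit with genotype and replicate number, 5 genes differed between the replicates. Rpl38 was higher in replicate 2 (0.547, SE 0.146, adjusted p = 0.00379), 1 of 44 beside 5.95% of all genes. Rpl36 (-0.527, SE 0.122, adjusted p = 0.000533), Rpl29 (-0.473, SE 0.118, adjusted p = 0.00160), Rpl18 (-0.454, SE 0.141, adjusted p = 0.0163) and Rpl14 (-0.457, SE 0.144, adjusted p = 0.0183) were lower, 4 of 44 beside 6.28%. The Rpl14 call is not one for the pair: Rpl14-ps1, which holds most of its counts, stood at -0.243 (adjusted p = 0.257). DESeq2 kept 1 of the 4 lower calls, and scaling to library size 2. Short coding sequences went with the higher side: of the 22 genes with 51 to 157 codons, 14 were above 0 (median 0.083), and of the 22 with 160 to 419 codons, 4 were (median -0.110). Over the 44 genes the replicate difference correlated with coding GC content (r = -0.549, rho = -0.536) and with codons (r = -0.385, rho = -0.430), while the KO difference did so less (0.194 and 0.202 for GC, -0.187 and -0.288 for codons). Genes share libraries and base composition, and these values are descriptions.

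With the replicate number as a block, 24.0% of all genes were called, 12.7% higher and 11.3% lower, and 4 of the 44 (9.09%). Rplp1 (0.414, SE 0.133, adjusted p = 0.0112) and Rpl35a (0.411, SE 0.133, adjusted p = 0.0120) rose. Rpl32 (-0.517, SE 0.150, adjusted p = 0.00463) and Rpl26 (-0.370, SE 0.140, adjusted p = 0.0375) fell. Rplp2 missed the threshold (adjusted p = 0.0792). The family's shares lay below the background in both directions. This fit leaves 1 residual degree of freedom per gene, and its calls hold only if the shared number marks a shared experiment.

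RNA-seq and the ratio of footprints to RNA gave another picture, on few counts. Of the 44 genes, 28 passed the filter on low RNA-seq counts. Of these 28, 21 were below 0, with a median log2 fold change of -0.659 (all 2087 tested genes 0.012, of which 1032 were below 0). The filter asks for enough counts in only 2 libraries, so a gene can pass through 1 genotype alone. Rpl32, Rpl10, Rpl11 and Rpl19 passed through WT, the group where they were high. Among others, Rpl35, Rpl4 and Rpl13 also needed WT to pass. In KO they had 39.4 and 51.9, 52.6 and 34.6, and 32.9 and 57.7 CPM. The count below 0 and the median thus depend in part on the filter and are descriptions. Rpl3 and Rpl32 fell, 2 of 28 beside 2.68% of all genes called lower, and 0 of 28 rose. Rpl3 (chr15:80077791-80091868, minus strand) had 57 and 91 counts in WT and 12 and 21 in KO (270 and 414 against 78.8 and 121 CPM), which is -1.84 on the log2 scale (SE 0.380, adjusted p = 0.0171). Rpl32 had 31 and 35 counts in WT and 3 and 5.49 in KO (147 and 159 against 19.7 and 31.7 CPM), which is -2.70 on the log2 scale (SE 0.531, adjusted p = 0.0133). In both genes the KO libraries lay below the WT libraries by more than the replicates differed. Without KO RNA-seq replicate 1 both calls were lost (adjusted p = 0.0711 for Rpl3 and 0.0517 for Rpl32), and 4 genes were called without WT replicate 1.

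Other genes of the family had RNA-seq differences of the same sign that did not pass. Rpl10, with 14 and 22 counts against 6 and 2, stood at -1.81 (SE 0.673, adjusted p = 0.135), and Rpl11, with 21 and 18 against 4 and 8, at -1.38 (SE 0.557, adjusted p = 0.163). The 7 genes above 0 were Rpl7a, Rpl15, Rpl21, Rpl27, Rpl27a, Rpl29 and Rpl30. Rpl7a had 49.8 and 52.6 counts in WT and 57.6 and 64.9 in KO (0.568, SE 0.303, adjusted p = 0.299). Rpl23, just below 0, had 65.3 and 97.3 against 61.7 and 63.1 (-0.048, SE 0.303, adjusted p = 0.944). Both held more KO counts than Rpl3, and both share windows with other entries, 16.8% of the Rpl7a and 6.30% of the Rpl23 transcript (0% of its coding windows). Of the other genes above 0, Rpl21 and Rpl29 share 19.6% and 38.4% of their transcripts, and Rpl15, Rpl27, Rpl27a and Rpl30 share 0%. These are observations made after the values were seen. Rpl37, Rpl38 and Rplp2 had 0 counts in both KO libraries and at most 6 in a WT library, too few to test.

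The small-subunit proteins and the other TOP mRNAs that passed the same filter were mostly below 0 as well, with the same limit. In RNA-seq 15 of 16 tested small-subunit proteins were below 0 (median -1.34, 3 called lower), and 5 of 5 other TOP mRNAs (median -1.20, 1 called lower), beside the 2.68% of all genes given above. The KO RNA-seq libraries also had fewer counts in all (152195 and 173389 against 211353 and 219567). Rn45s took 0.638% and 1.02% of the KO counts against 7.99% and 3.33% in WT, the opposite direction to its footprint share. Cell markers moved in the RNA-seq libraries too. The 6 mESC markers summed to 431 and 520 CPM in WT and 224 in each KO library (0 of 2 tested were called). The fibroblast markers summed to 18.9 and 31.9 against 217 and 122 (1 of 1 called higher, Tagln). The trophoblast markers summed to 67.7 and 25.8 against 229 and 166 (1 of 1 called higher, Krt8). The part of these in the RNA-seq result was not tested.

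**Figure D4:**
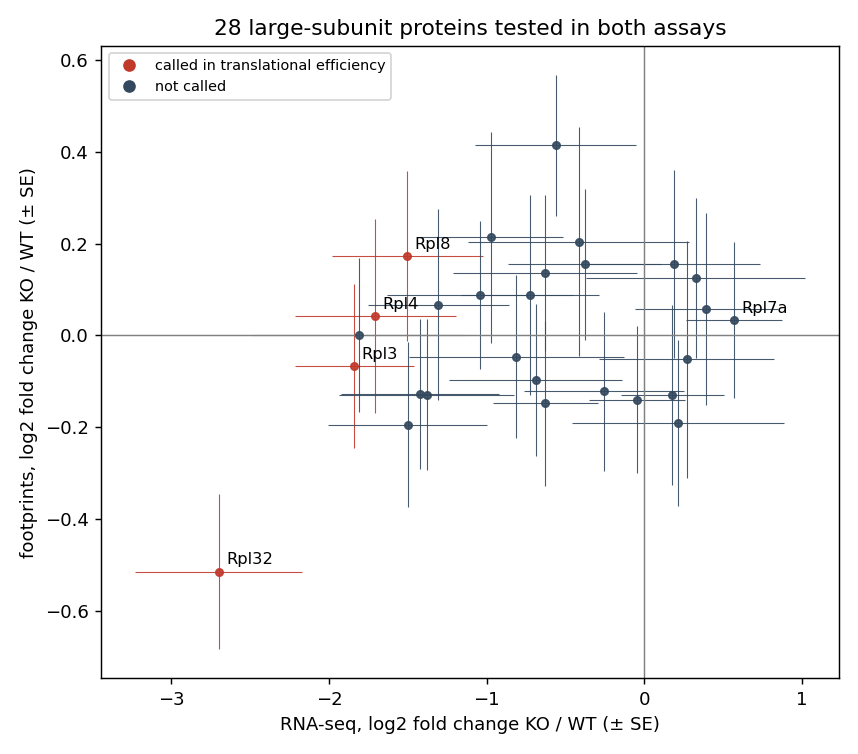
RNA-seq log2 fold change (x axis) and footprint log2 fold change (y axis) of KO against WT with their SE for the 28 large-subunit proteins tested in both; red marks those called in translational efficiency. The points spread from -2.70 to 0.57 in RNA-seq and from -0.515 to 0.415 in footprints.

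Translational efficiency, footprints relative to RNA-seq of the same gene, was tested as an interaction in 1 fit over all 8 libraries. Among the 28 genes 4 rose, beside 4.73% of the 1458 genes tested, and 0 fell. They were Rpl32 (2.24, SE 0.431, adjusted p = 0.0118), Rpl3 (1.81, SE 0.393, adjusted p = 0.0194), Rpl8 (1.71, SE 0.392, adjusted p = 0.0237) and Rpl4 (1.80, SE 0.475, adjusted p = 0.0357). Each is a log2 fold change of the ratio. Rpl32 passed the RNA-seq filter through WT alone, the group where it was high. Rpl4 (52.6 and 34.6 CPM in KO) also needed WT to pass, and Rpl8 (52.6 and 51.9 CPM in KO) lay near the cutoff in KO. These calls thus depend in part on the filter. In the same order, their footprint log2 fold changes were -0.515, -0.067, 0.173 and 0.043, none of them called, and those of RNA-seq were -2.70, -1.84, -1.50 and -1.71. Rpl8, a protein next to the peptidyl transferase centre, had 33 and 27 RNA-seq counts in WT and 8 and 9 in KO, and Rpl4, which lines the tunnel, had 22 and 36 against 8 and 6.

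Not all calls held when a library was left out, which leaves its group with 1 library and the fit with less power. Without KO Ribo-seq replicate 2 none of the 4 remained (adjusted p 0.0561 for Rpl32, 0.0735 for Rpl3, 0.0760 for Rpl8 and 0.0866 for Rpl4), and without KO Ribo-seq replicate 1 only that of Rpl32 did. Without KO RNA-seq replicate 1 those of Rpl3 (0.0519) and Rpl4 (0.0593) were also lost, and that of Rpl4 further without KO RNA-seq replicate 2, WT RNA-seq replicate 2 or WT Ribo-seq replicate 2. The family's median was 0.813 (all genes -0.001), with 20 of 28 above 0, and the small subunit's was 1.49, with 16 of 16 above 0 and 6 called higher. These counts rest on genes that passed the RNA-seq filter, some through WT alone, and are descriptions.

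Some large-subunit proteins have paralogs, some of which can take their place in the ribosome. Of 6 paralogs tested, 2 passed the footprint test, both higher, beside 2.44% of the 12315 genes tested called in either direction. Rpl10l, a copy on chromosome 12 of the X-linked Rpl10 known from the testis, rose from 26.8 and 25.03 CPM in WT to 45.8 and 47.8 in KO (0.866 on the log2 scale, SE 0.178, adjusted p = 0.0429). Rpl39l, the copy of Rpl39 on chromosome 16 known from male germ cells, rose from 9.78 and 13.5 CPM to 23.4 and 23.8 (1.04, SE 0.219, adjusted p = 0.0464). For both, each KO library lay above each WT library while Rpl10 and Rpl39 stayed uncalled. With the replicate block, under the limit given above for that fit, the adjusted p was 2.51e-08 for Rpl10l and 2.43e-08 for Rpl39l. Without the block both calls lie close to the threshold. That of Rpl10l was lost without WT replicate 2 (adjusted p = 0.0644), KO replicate 1 (0.0900) or KO replicate 2 (0.175), and that of Rpl39l without WT replicate 1 (0.0602), KO replicate 1 (0.0867) or KO replicate 2 (0.123).

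The copies can be told from the X-linked genes by sequence, as the coding stretches below show (bases 437 to 496 for the first pair, 49 to 108 for the second, differing letters in capitals).
Rpl10: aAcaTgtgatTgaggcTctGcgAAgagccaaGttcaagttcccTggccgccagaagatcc
Rpl10l: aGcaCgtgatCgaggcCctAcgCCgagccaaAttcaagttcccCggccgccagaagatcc
Rpl39: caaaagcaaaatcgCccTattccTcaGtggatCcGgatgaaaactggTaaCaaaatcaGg
Rpl39l: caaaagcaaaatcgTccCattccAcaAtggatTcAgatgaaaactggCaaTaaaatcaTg
Rpl10 and Rpl10l are 84.8% identical and share no 28-base window. Rpl39 and Rpl39l are 85.3% identical and share 8.53% of windows. Per codon, Rpl10l held 2.13% and 2.40% of the footprints of its pair in WT and 3.82% and 4.24% in KO, and Rpl39l held 2.63% and 3.45% against 5.59% and 5.28%. The copies thus remained minor in both genotypes.

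Rpl22 and Rpl22l1, a pair in which the paralog is abundant, went the other way. Rpl22, an RNA-binding protein of the subunit surface, had 794 and 641 CPM in WT and 760 and 801 in KO (0.137, SE 0.174, adjusted p = 0.725). Rpl22l1 had 465 and 406 CPM in WT and 280 and 317 in KO (-0.529, SE 0.169, adjusted p = 0.139, and 0.000169 with the replicate block). Its share of the pair per codon was 38.1% and 39.9% in WT and 27.8% and 29.4% in KO, with no overlap. The 2 sequences are 70.2% identical and share no window, as coding bases 193 to 252 of Rpl22 and 175 to 234 of Rpl22l1 show:
Rpl22: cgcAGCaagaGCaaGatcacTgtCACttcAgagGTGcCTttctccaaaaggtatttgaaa
Rpl22l1: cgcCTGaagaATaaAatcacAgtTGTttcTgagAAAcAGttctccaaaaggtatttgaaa
The remaining paralogs were not called: Rpl36al stood at -0.245, Rpl7l1 at -0.098 and Rpl3l, at about 1 CPM, at 0.017. RNA-seq held 0 counts of Rpl39l and Rpl22l1 in its 4 libraries and at most 1 of Rpl10l.

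**Figure D5:**
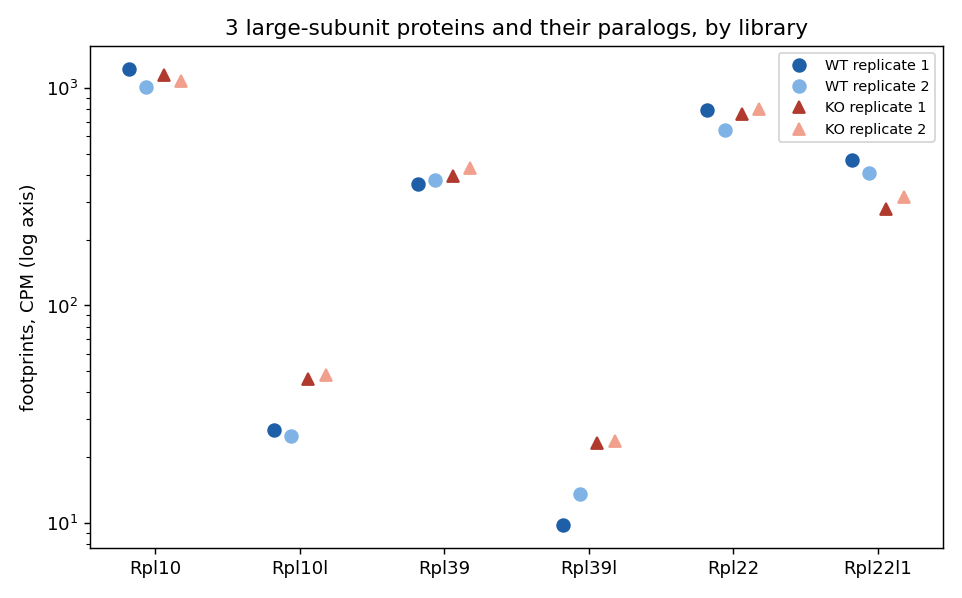
Footprint CPM (log axis) of Rpl10, Rpl39 and Rpl22 and of a paralog of each, by library, circles WT and triangles KO. Both KO libraries lie above both WT libraries for Rpl10l (45.8 and 47.8 against 26.8 and 25.03) and Rpl39l, and below them for Rpl22l1.

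The factors that build and export the subunit lay lower in the KO without passing the test. Of 25 such genes, 24 had a footprint log2 fold change below 0, with a median of -0.237 and 0 called by the edgeR test. Nop2, a methyltransferase of 28S ribosomal RNA, stood at -0.698 (SE 0.186, adjusted p = 0.0920), Heatr3, which imports Rpl5, at -0.522 (SE 0.146, adjusted p = 0.103) and Pes1, a processing factor, at -0.450 (SE 0.155, adjusted p = 0.158). With the replicate block 8 of 25 were called lower, these 3 among them, beside 11.3% of all genes. Nop2, Heatr3 and Pes1 lie on chromosomes 6, 8 and 11, whose genes stood lower as a whole. The 5 assembly genes there had a median of -0.450 (4 of the 8 lower calls with the block), and the 20 elsewhere -0.184, with 19 below 0. The part of the chromosomes in these values was not tested. Of the proteins of the subunit itself 21 of 44 were below 0, and of the small-subunit proteins 8 of 33 (median 0.103, 0 called). Of the 16 other TOP mRNAs, such as those of elongation factors, 13 were below 0 (median -0.069, 0 called, and 2 called lower with the block, Pabpc1 and Cct4). Of 8 regulators of TOP mRNAs 0 were called; Larp1, on chromosome 11, stood at -0.292 (adjusted p = 0.355, and 0.04925 with the block) and Eif4ebp2, a repressor of cap-dependent translation, at 0.491 (adjusted p = 0.230, and 0.00179 with the block).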

How the data were processed

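Per the submitters' processing notes, the authors used Bowtie2 2.3.4.3, RSEM and mm10; how strand and multiple alignments were treated was not given in the sources used. Per the file headers, each library's deposited table holds RSEM expected counts, which split reads shared between genes, TPM, FPKM (not used) and lengths (deposited as other values). Expected counts were rounded for the tests. KO was set against WT per assay with the edgeR 4.0.16 quasi-likelihood test (R 4.3.3, TMM, filterByExpr), adjusted over all genes by Benjamini-Hochberg, with 0.05 as the threshold. DESeq2 1.42.0 and limma 3.58.1, the latter on log2 of the deposited TPM, were alternatives, beside other filters and scalings, a replicate block and leaving out each library. SE is the log2 fold change divided by the root of F. Steps were tested on simulated counts. Deviations of same-numbered footprint libraries correlated by 0.433 over tested genes (RNA-seq 0.054). Positions, coding sequences and windows came from GENCODE M21. All members may be named; full statistics went to members called in a footprint fit, the 5 highest and 5 lowest, a preset list and, in other lists, called genes and the smallest p; others named were chosen after their values were seen. The members and lists were chosen with earlier results of these data known.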

Additional observations from a re-analysis of the deposited data

How the results depend on the processing

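With the replicate number as a block, footprint calls over all genes went from 301 to 2960, and the large-subunit calls from 0 to 2 higher and 2 lower; the fit without the block is reported because no label ties a number to a shared experiment. It changed no RNA-seq or translational efficiency call of the family. Footprint calls were 1110 with no filter, 186 at a mean count of at least 50, 75 with limma on TPM and 189 to 761 leaving out a library. RNA-seq calls went from 133 to 75 with DESeq2, 76 at the higher minimum, 0 with limma and 73 to 242 leaving out a library. The 2 large-subunit calls became 0 with limma and varied when a library was left out. At the higher minimum Rpl3 and Rpl32 did not enter the fit, as both averaged fewer than 50 RNA-seq counts. Translational efficiency calls went from 135 to 17 at the higher minimum and 29 to 120 leaving out a library, and the 4 large-subunit calls to 0, and 0 to 6. The calls between replicates went from 1506 to 181 with DESeq2 and 924 with library size scaling, and the 4 lower large-subunit calls to 1 and 2. The family's footprint median ranged from -0.138 without WT replicate 2 to 0.144 without WT replicate 1. The cause of these shifts was not tested, except that fewer genes or libraries entered the filtered and left-out fits. Uncalled single genes near 0 turned sign. Rpl10 (0.002) was -0.006 with DESeq2 and with its size factors, -0.010 with library size and -0.013 with limma, and Rpl29 was 0.009 with the block. Leaving out a library moved Rpl10 between -0.135 and 0.150, Rpl14 between -0.497 and 0.197, Rpl22 between -0.016 and 0.305, Rpl29 between -0.429 and 0.454, Rpl3 between -0.224 and 0.106, Rpl31 between -0.034 and 0.289, Rpl37 between -0.288 and 0.145, Rpl38 between -0.530 and 0.135 (0.063 without WT replicate 2), Rpl5 between -0.211 and 0.024, Rpl8 between -0.018 and 0.390, and Rplp0 between -0.197 and 0.442. Of the RNA-seq libraries, 460 to 1016 counts of the family limit what can be resolved for single genes.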
